A study of Mus musculus with 5 samples.

Results

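The 10 genes described here encode elastin and the proteins that carry, link or decorate it: Eln, the fibulins Fbln1, Fbln2 and Fbln5, the fibrillin Fbn1, the latent TGF-β binding protein Ltbp4, the microfibril-associated proteins Mfap2, Mfap5 and Mfap4, and Emilin1. They were chosen by symbol, as members of the elastic fiber and its microfibrils, and all 10 were listed in each of 5 expression tables, among 13711 genes that the tables shared. The tables came from Visium spatial transcriptomics, in which polyadenylated RNA of a tissue section is captured on a grid of barcoded spots, each spot covering a small region with several cells. All animals were wild-type C57BL/6 mice that had surgery at postnatal day 1, either myocardial infarction (MI) by ligation of the left anterior descending coronary artery or a sham operation. Transverse heart sections of 10 µm were taken 200 µm below the suture, or at the equivalent level in sham hearts, 3 or 7 days later. There was 1 sham and 1 MI section of day 3, and there were 1 sham and 2 MI sections of day 7. Per the study's supplement, the pair of MI day 7 sections came from independent biological replicates and each other group from 1 biological sample, so that pair is the only measure of spread within a group.

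Elastic fibers are made of a core of cross-linked elastin laid onto a scaffold of microfibrils. Fibrillins polymerize into the microfibrils, microfibril-associated glycoproteins bind along them, and fibulins and latent TGF-β binding proteins bring tropoelastin together with the lysyl oxidases that cross-link it. Microfibrils also hold latent TGF-β and related growth factors in the matrix. In the heart these proteins are made mainly by fibroblasts, smooth muscle, valve and endocardial cells, they give the vessel walls and the endocardium their recoil, and they are laid down in scar after infarction.

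Sections held 376 to 960 spots and 11396022 to 37492530 raw unique molecular identifiers (UMIs), with a median of 20842.5 to 53940 per spot. MI day 7 replicate 1 was the most deeply sequenced section and had the highest mitochondrial share, 24.7% against 13.8 to 15.8% in the others. The 6 cardiomyocyte markers summed to 15753 to 20053 CPM (UMIs in sham day 3 and values corrected by sctransform in the other 4 sections, scaled to a fixed total per spot), so cardiomyocyte RNA was abundant in each. Section values are mean CPM over spots. An edge spot had fewer than 6 immediate neighbors on the hexagonal grid, which gave 86 to 163 edge spots a section. Of the 86 edge spots of the MI day 3 section, 22 had under 1/3 of the section's median UMIs and 10 had no neighbor at all. In the sham day 3 section, the only table of raw counts, the members had between 258 UMIs (Fbln5) and 3360 UMIs (Ltbp4), and exact Poisson 95% intervals spanned 12.4% and 3.4% on each side (counting error only).

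Elastin RNA was higher in every MI section than in either sham section. Eln, the precursor of the elastic core, stood at 174 CPM in the sham day 3 section, 433 in MI day 3, 306 in sham day 7, and 381 and 605 in MI day 7 replicates 1 and 2. The lowest MI section lay above the highest sham section, but the 2 MI sections of day 7 were further apart (493 ± 158 CPM, SD, n = 2) than the lower of them was from sham day 7. Across days, with day as a covariate, the log2 difference between MI and sham was 0.93 (SE 0.24, limma adjusted p = 0.412). The summed members went from 1241 CPM (sham day 3) to 1762 (MI day 3) and from 1580 (sham day 7) to 1657 and 2141 (MI day 7).

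**Figure D1:**
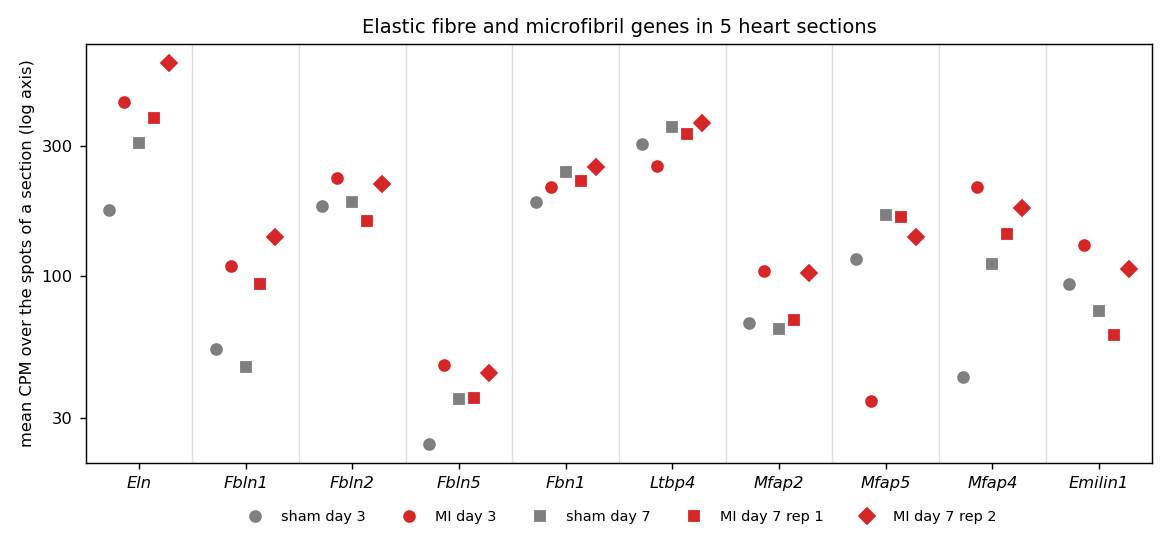
Mean CPM over the spots of each section (log axis) for the 10 genes, gray for sham and red for MI, circles for day 3, squares for sham day 7 and MI day 7 replicate 1, diamonds for MI day 7 replicate 2. All red symbols lie above all gray symbols for Eln, Fbln1, Fbln5, Mfap2 and Mfap4, by a margin of 35.3 against 35.1 CPM for Fbln5.

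Of the fibulins, Fbln1 had the clearest separation of MI from sham. Fbln1, a glycoprotein that binds elastin and fibronectin, was at 53.8 CPM in sham day 3 and 46.1 in sham day 7, against 108 in MI day 3 and 92.8 and 138 in MI day 7. The MI sections did not overlap with the sham sections on either day. At day 7 Fbln1 rose, with a log2 difference of 1.28 (SE 0.25, adjusted p = 0.0425 by limma), the only member called among 10, where 30 of 12933 genes (0.232%) were called. This fit had 1 residual degree of freedom, so its error came mostly from other genes, and the call was lost with median-of-ratios scaling (adjusted p = 0.285), without mitochondrial and hemoglobin genes (0.409), without spots that had no neighbor (0.139) and without symbols that have a second copy (0.0564), while the difference stayed between 1.28 and 1.31.

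Fbln5, which tethers elastin to microfibrils and to integrins, was also above sham in each MI section, but only just: its 5 sections ran from 24.0 CPM (sham day 3) to 46.9 (MI day 3), and MI day 7 replicate 1 (35.3) was level with sham day 7 (35.1). Fbln2, a fibulin of the endocardial cushion and of vessel walls, overlapped between the groups, with 181 and 186 CPM in sham sections and 159 to 229 in MI sections. Neither gene passed the test in any comparison of MI with sham.

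Among the microfibril genes, Mfap4 and Mfap5 differed from sham in opposite directions 3 days after MI. Mfap4, a fibrinogen-related protein that binds tropoelastin and fibrillin, was at 42.3 CPM in sham day 3 and 212 in MI day 3, and at 110 in sham day 7 against 142 and 178 in MI day 7. Mfap5, a microfibril-associated glycoprotein that binds fibrillin and Notch ligands, was at 115 CPM in sham day 3 and 34.4 in MI day 3, and at 167 in sham day 7 against 165 and 138 in MI day 7. MI day 3 was thus the highest section for Mfap4 and the lowest for Mfap5, and at day 7 the Mfap5 values of MI and sham lay close together.

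At day 3 there was 1 section a group and no test, and a log2 ratio of at least 1 in either direction was reached by 521 of 12933 genes (4.03%) and by 3 members: Mfap4 (2.29), Eln (1.31) and Mfap5 (-1.71). Fbln1 (0.998) and Fbln5 (0.94) lay just short of it. The median of the members was 0.56, beside 0.032 for all genes. With the sham day 3 counts corrected by sctransform as the other tables had been, Mfap4 was 2.32, Eln 1.35 and Mfap5 -1.72, and Fbln1 passed 1 as well (1.10), which made 4 members. Fbln1 also passed 1 without shallow spots (1.09) and without spots that had no neighbor (1.00).

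**Figure D2:**
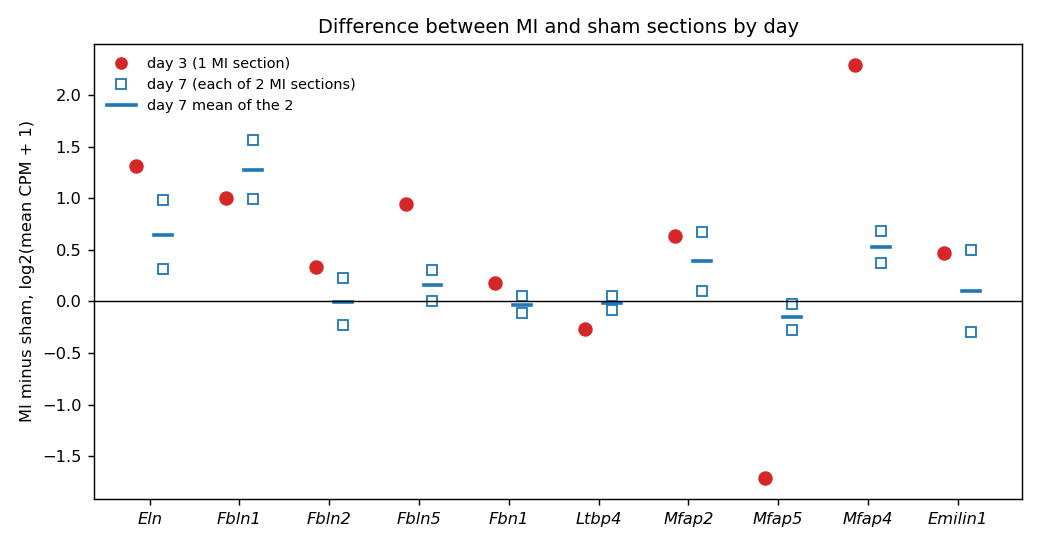
Log2(mean CPM + 1) of MI minus sham for each gene at day 3 (red circles, 1 MI section) and at day 7 (blue open squares, each of 2 MI sections; bars, their mean). Mfap4 at 2.29 and Mfap5 at -1.71 are the extremes of day 3, and Fbln1 has the highest mean of day 7, 1.28.

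The difference between MI and sham was itself larger at day 3 than at day 7 for Mfap4, with a log2 contrast of 1.77 (SE 0.37, adjusted p = 0.0432 by limma). For Mfap5 the same contrast was -1.57 (SE 0.36, limma adjusted p = 0.0692) and missed the threshold. Of 12933 genes, 55 (0.425%) were called in this contrast, and Mfap4 was the only member of 10. With median-of-ratios scaling, and without mitochondrial and hemoglobin genes, 0 genes of all were called here, and 0 at day 7. It compares 1 section with 1 at day 3, and the Mfap4 call was lost with median-of-ratios scaling (adjusted p = 0.201), without mitochondrial and hemoglobin genes (0.279), without spots that had no neighbor (0.105) and without symbols that have a second copy (0.0510), its size staying between 1.66 and 1.78. Without spots under 1/3 of the median UMIs, Mfap5 was called as well (-1.56, adjusted p = 0.0479).

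The remaining microfibril and elastin-binding genes showed smaller differences. Mfap2, the other microfibril-associated glycoprotein, was at 66.6 and 63.6 CPM in sham and at 104, 68.4 and 102 in MI sections, which did not overlap. Fbn1, the main structural subunit of microfibrils, ranged only from 187 to 250 CPM over the 5 sections. Over the same sections Ltbp4, which binds fibulins and latent TGF-β, ranged from 253 CPM in MI day 3 to 363 in MI day 7 replicate 2, and Emilin1, a glycoprotein at the border of elastin and microfibril, from 60.4 CPM in MI day 7 replicate 1 to 130 in MI day 3. For these last 3 genes the 2 MI sections of day 7 lay on either side of sham day 7.

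Over both days, 8 of 10 members were higher in MI, with a median of 0.38 beside -0.0097 for all genes, and 5 members (Eln, Fbln1, Fbln5, Mfap2 and Mfap4) were higher in each MI section than in both sham sections, which 885 of 12933 genes (6.84%) were. None of the 10 passed the limma test across days, in which 1 gene of 12933 (0.00773%) was called, and 6 had an unadjusted p under 0.05, as did 692 genes in the upward and 356 in the downward direction. With 2 residual degrees of freedom, single sections decided these calls. Without MI day 7 replicate 1, Eln (1.15), Fbln1 (1.28) and Mfap2 (0.66) were called, among 87 genes in all. Without the sham day 7 section, Eln (1.31), Mfap4 (2.29) and Mfap5 (-1.71) were called among 366 genes, but this fit sets the lone MI section of day 3 against the lone sham section, with its spread taken from the 2 MI sections of day 7 and from other genes (16.7 prior degrees of freedom), and adds no replicate to the day 3 ratios. Without the sham or the MI section of day 3 the fit repeats the day 7 contrast, and Fbln1 (1.28) was called among 29 and 34 genes, which is no further support. In spots with CM1, a cardiomyocyte class, as their highest score, Fbln1 was called across days too, at 0.997 (limma adjusted p = 0.0370), among 32 genes.

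Marker sums differed between the groups too. The sum of 8 fibroblast markers was 3810 and 4291 CPM in sham and 5283, 5120 and 6847 in MI sections. Its largest parts were the collagens Col3a1, Col1a1 and Col1a2. From sham to MI at day 3 these went from 1683 to 2070, 686 to 1234 and 555 to 1034 CPM. Pdgfra, Tcf21 and Lum were higher in MI too, while Dcn (430 and 398) and Dpt (192 and 187) were lower. At day 7 all but Tcf21 in replicate 1 (40.8 against 44.8) were above sham. The sum of 6 immune markers was 87.0 and 94.0 in sham, 869 in MI day 3, and 146 and 227 in MI day 7. Blood markers were at 4401 and 6884 CPM in sham and at 11356, 8546 and 10723 in MI, and epicardial markers at no more than 20.4 in sham and at 46.8, 19.7 and 33.9 in MI. Their part in the differences was not tested, and in spots of mixed cells more cells of a type and more RNA per cell cannot be told apart. Values were also taken within spots grouped by their highest cell type score. The share of spots in a class differed between sections. At day 3, Mfap4 was higher in MI in all 6 score classes with at least 10 spots in both sections, by 2.23 to 3.26 on the log2 scale, Eln in all 6 by 1.57 to 2.79, and Mfap5 was lower in all 6 (-3.61 to -0.73). Being higher in all 6 held for 7 members and for 1783 of 12933 genes (13.8%), and being lower in all 6 for 1 member and 809 genes (6.26%). At day 7, Fbln1 was higher in both MI sections than in sham in each of 7 classes, as were 138 of 12933 genes (1.07%), while Eln was in 4 and Mfap4 in 5. Mfap5 at day 7 was higher in both MI sections in 5 of the 7 classes and lower in 1, although its difference over whole sections was -0.15.

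Between days 3 and 7, with operation as a covariate, no member was called, while 77 of 12933 genes (0.595%) were. Mfap5 came nearest, 1.43 higher at day 7 (SE 0.32, limma adjusted p = 0.0972). Mfap5 and Ltbp4, both higher at day 7, were the 2 members with an unadjusted limma p under 0.05. So were 431 of 12933 genes in the upward and 2810 in the downward direction, over both directions a share no smaller than that of the members. The median difference was 0.16 for the members and -0.18 for all genes. Single sections decided this as well: the Mfap5 difference was 0.53 without MI day 3 and 2.10, and called, without the sham section of day 3 or of day 7 (among 747 and 758 genes), which leaves the lone MI day 3 section against the 2 of day 7. Without MI day 3 the Mfap4 difference was 1.36. That fit sets the lone sham section of day 7 against the lone sham section of day 3, as for the 0.53 of Mfap5. Calls over all genes numbered 32 higher and 45 lower at day 7, but 127 higher and 58 lower with median-of-ratios scaling, which moved the median of all genes by 0.18.

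In the plane of the section, neighboring spots had like values of the members. The 10% of spots with the highest Eln held 47.0 to 65.7% of its CPM, those of Mfap4 35.2 to 50.2%, those of Mfap5 27.1 to 39.3%, and those of Ltbp4 20.9 to 23.8%, beside a median over all genes of 34.1 to 49.8%. Of these only Eln was above that median in each section, as was Fbln5 (44.7 to 63.2%). Moran's I, which measures how alike neighboring spots are, was 0.087 to 0.66 for the members, beside a median over all genes of 0.0035 to 0.025 and a 90th percentile of 0.041 to 0.16. It was 0.21 and 0.25 for Eln in sham day 3 and day 7, against 0.53, 0.38 and 0.46 in MI sections, and 0.18 and 0.30 for Mfap4 in sham against 0.66, 0.49 and 0.51 in MI. Over all genes it was higher in MI sections too. The median was 0.0035 and 0.0057 in sham against 0.025, 0.015 and 0.013 in MI. The 90th percentile was 0.048 and 0.041 in sham against 0.16, 0.079 and 0.080 in MI. Emilin1 had the lowest mean I over the 5 sections, ranging from 0.087 to 0.35. Depth per spot differed between sections, and its part in these values was not tested.

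**Figure D3:**
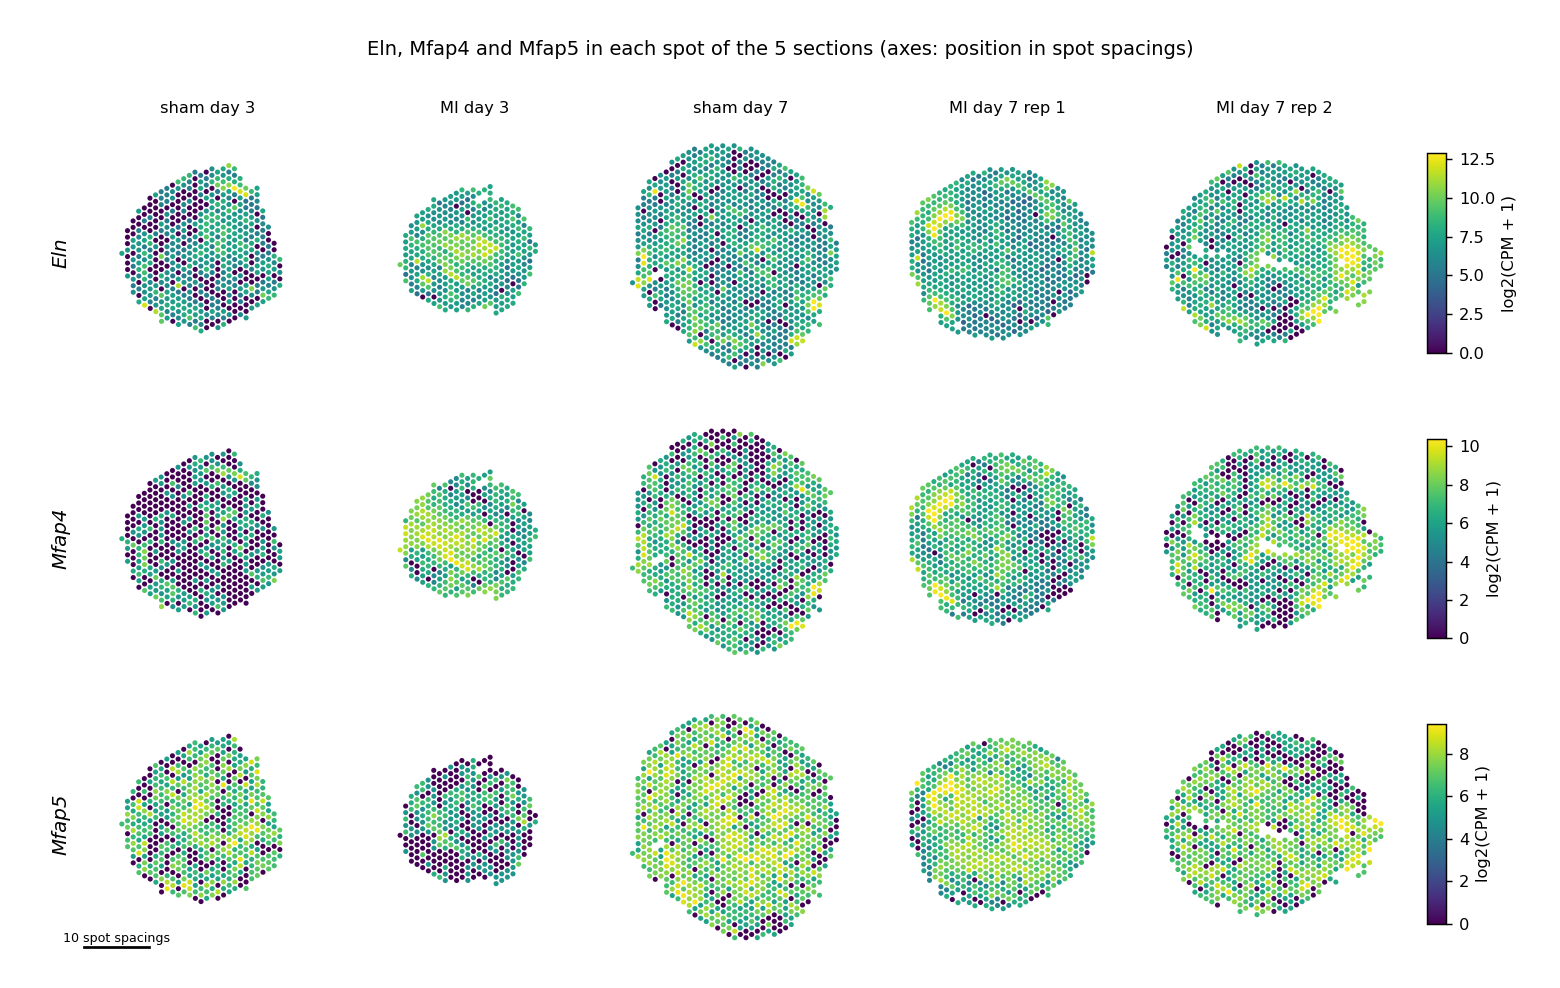
Log2(CPM + 1) of Eln, Mfap4 and Mfap5 (rows) in each spot of the 5 sections (columns), placed in units of spot spacing, with spots that have no neighbor left out. Eln and Mfap4 share some of their high patches, in the center and toward the left in MI day 3 and toward the periphery in MI day 7. They differ in others. In MI day 3, spots scored highest as endocardial had 1408 CPM of Eln and 321 of Mfap4, and those scored as macrophage 386 and 530. On the outer margin of MI day 7 replicate 2, Eln was above the interior (697 against 560 CPM) and Mfap4 below it (150 against 173). Mfap5 is low over the MI day 3 section and is spread more evenly in the others.

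To see which tissue the patches belonged to, spots were grouped by the highest of 11 cell type scores that the authors had transferred from single-nucleus data. These scores come from the same expression values, so the classes describe the members and give no test. All 10 members were higher in fibroblast (FB) spots than in CM1 spots, the largest cardiomyocyte class, in all 5 sections, as were 4062 of 12933 genes (31.4%). The log2 difference was 3.2 ± 0.62 (SD, n = 5 sections) for Eln, 2.57 ± 0.56 for Mfap4, 2.26 ± 0.33 for Fbln5 and 2.08 ± 0.57 for Fbln1, and it was least for Emilin1 (1.07 ± 0.24), Ltbp4 (1.09 ± 0.21) and Mfap5 (1.29 ± 0.21). Over all genes the median was 0.17.

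Eln in FB spots was 416 CPM in sham day 3, 1356 in MI day 3, 704 in sham day 7, and 1660 and 2709 in MI day 7, while in CM1 spots it was 59.2, 178, 118, 115 and 180. FB spots of MI sections thus stood above those of sham on both days, while CM1 spots of MI day 7 replicate 1 did not. FB spots numbered 122 of 544 in sham day 3 and 22 of 376 in MI day 3. At day 7 they were 266 of 960 in sham, and 94 of 693 and 94 of 791 in MI. The part of this smaller share in the values was not tested. Eln in endocardial (EndoEC) spots was 202, 1408, 585, 542 and 1009 CPM, above FB spots in MI day 3 only. That order turned where the highest score had to be at least 0.5, with 1517 CPM in 25 EndoEC and 1586 in 17 FB spots. Mfap4 in FB spots was 87.6 CPM in sham day 3 and 675 in MI day 3, whereas Mfap5 was 187 and 74.5 CPM in the same spots. Epicardial (EPI) spots reached 10 in number only in MI day 7 replicate 2, where 13 of 15 were edge spots. There they had the highest Fbln1 (643 CPM), Fbln2 (1004), Mfap2 (420) and Mfap5 (330) of all 8 classes, beside 419, 592, 265 and 275 CPM in FB spots. For Fbln1 (462 CPM) and Mfap5 (286) the second class was macrophage, with 13 spots, and for Fbln2 and Mfap2 it was FB.

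**Figure D4:**
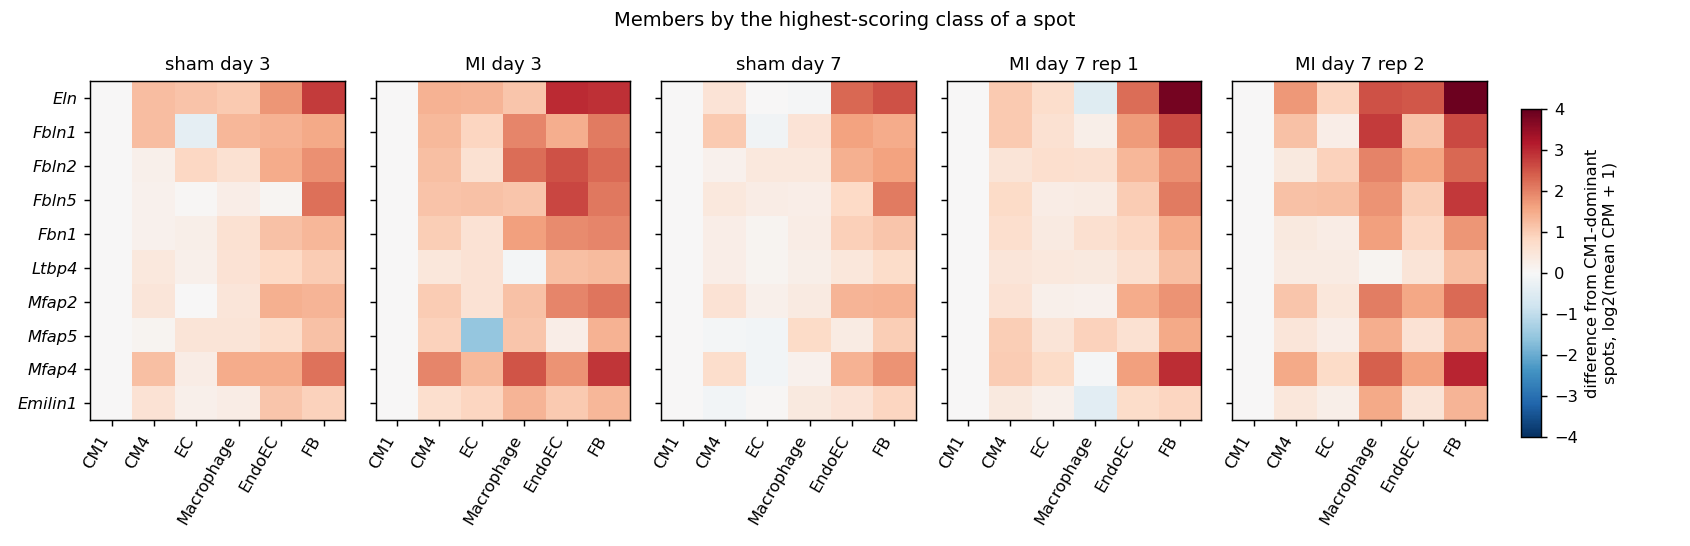
Difference of log2(mean CPM + 1) from CM1 spots for the 10 genes (rows) in spots grouped by their highest score (columns, the classes with at least 10 spots in each section), in each section; red is higher than in CM1 spots, blue lower. FB is red for all 10 genes in all 5 sections, and Eln reaches 3.91 in FB spots.

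Position in the section gave a split that did not use expression. Comparing edge with interior spots, with the section as a block, 2 of 10 members were called and both were lower at the edge: Mfap5 and Fbn1. Over all genes 637 of 13308 (4.79%) were called. Of these, 98 were higher and 539 lower at the edge, against 177 and 51 with median-of-ratios scaling and 123 and 99 without mitochondrial and hemoglobin genes, and the median of all genes was -0.13, which the first scaling moved by 0.13. Differences of members are given as fitted, to be read against that median.

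Mfap5 in edge and interior spots was 79.6 and 122 CPM in sham day 3, 26.1 and 36.9 in MI day 3, 97.0 and 177 in sham day 7, 82.6 and 179 in MI day 7 replicate 1, and 140 and 137 in replicate 2. The edge was lower in 4 of 5 sections, and the exception was MI day 7 replicate 2. The log2 difference was -0.60 (SE 0.10, limma adjusted p = 0.00103). Fbn1 was lower at the edge in the same 4 sections (-0.24, SE 0.07, limma adjusted p = 0.0419), but this call was lost with median-of-ratios scaling (-0.10, adjusted p = 0.603), without mitochondrial and hemoglobin genes (-0.16, adjusted p = 0.243), with a pseudocount of 5, without spots that had no neighbor (adjusted p = 0.0514) and without any section but MI day 7 replicate 2 (adjusted p from 0.0999 to 0.225).

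Fbln1 leaned the other way, higher at the edge in 4 of 5 sections by 0.28 (SE 0.08, limma adjusted p = 0.0576). It was called with median-of-ratios scaling (0.42, adjusted p = 0.00763), without mitochondrial and hemoglobin genes (0.37, adjusted p = 0.00739), without spots that had no neighbor (0.30, adjusted p = 0.0490) and with an edge of fewer than 5 neighbors (0.31, adjusted p = 0.00772). Without MI day 7 replicate 2 it was 0.15 (adjusted p = 0.195). Its largest gap was in that section, at 209 CPM in edge and 120 in interior spots. Eln was called higher at the edge only without MI day 3 (0.41), and Ltbp4 lower without MI day 7 replicate 2 (-0.22) or with fewer than 5 neighbors (-0.19). No member was higher at the edge in all 5 sections, as 207 of 13308 genes (1.56%) were. Of the marker lists, fibroblast and blood markers were higher at the edge in 5 of 5 sections, and epicardial and immune markers in 4. Endocardial markers, like Mfap5 and Fbn1, were higher at the edge only in MI day 7 replicate 2 (919 and 839 CPM). Cardiomyocyte markers were higher in 1 section, sham day 7, and smooth muscle and pericyte markers and endothelial markers in 2 each. In MI day 7 replicate 2, immune markers summed to 463 CPM in edge and 165 in interior spots, and in MI day 3 to 1285 and 746. Their part in the edge values was not tested.

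The edge values of Eln varied between sections, and a difference between the operations did not pass the test. It was 240 CPM at the edge and 161 in the interior in sham day 3 and 478 and 281 in sham day 7, but 255 and 486 in MI day 3 and 348 and 387 in MI day 7 replicate 1, with 780 and 560 in replicate 2. Both sham sections were thus higher at the edge and 2 of 3 MI sections lower. The difference of the edge effects was -0.87 (SE 0.22, limma adjusted p = 0.689). No gene of 13308 was called in this contrast (0%) by limma, where an unadjusted p under 0.05 was reached by 348 genes in the positive and 406 in the negative direction, Eln and Fbln5 among them. Without MI day 7 replicate 2 the Eln value was -1.21 and was called, as it was with edge spots defined by fewer than 5 neighbors (-0.94, adjusted p = 0.0138). In the former fit the spread was taken almost wholly from other genes (217 prior degrees of freedom), although the 2 MI sections left in it differed by more than the sham sections.

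**Figure D5:**
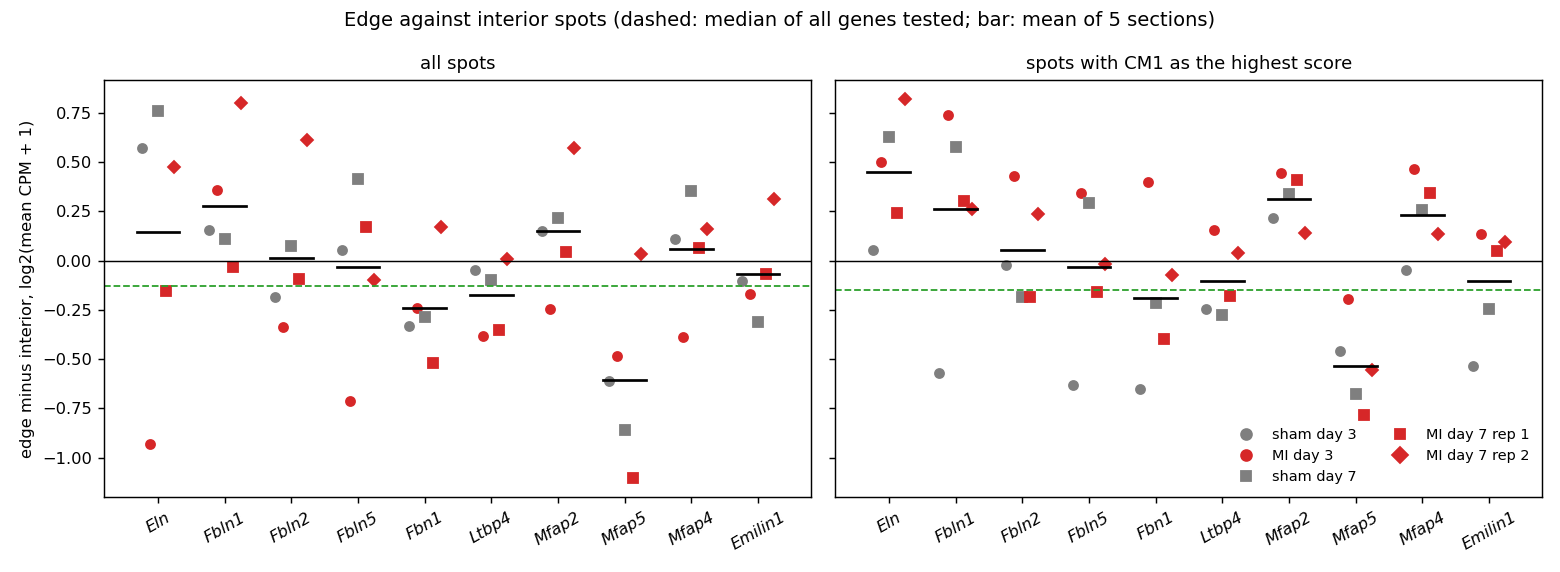
Edge minus interior, log2(mean CPM + 1), for the 10 genes in each section (gray sham, red MI), over all spots on the left and over CM1 spots on the right; black bars are means of 5 sections and the dashed line is the median of all genes tested. Mfap5 lies below 0 in 4 of 5 sections on the left and in all 5 on the right, and Eln lies above 0 in all 5 on the right.

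Among CM1 spots alone, Eln was higher at the edge and Mfap5 lower. Edge and interior CM1 spots had 61.3 and 58.9 CPM of Eln in sham day 3, 225 and 159 in MI day 3, 171 and 111 in sham day 7, 131 and 110 in MI day 7 replicate 1, and 276 and 156 in replicate 2. Eln at the edge exceeded the interior in 5 of 5 sections, by 0.45 (SE 0.08, limma adjusted p = 0.000526). Mfap5 was lower in 5 of 5, with a difference of -0.53 (SE 0.08, limma adjusted p = 0.000122), for example 70.6 against 122 CPM in MI day 7 replicate 1. These were 2 of 10 members, beside 191 of 13104 genes (1.46%), of which 32 were higher and 159 lower (99 and 22 with median-of-ratios scaling, 40 and 34 without mitochondrial and hemoglobin genes). Mfap2 missed the threshold (0.31, limma adjusted p = 0.0590), and it was called with median-of-ratios scaling (0.45), as was Mfap4 (0.37), without mitochondrial and hemoglobin genes (0.40) and with fewer than 5 neighbors (0.38). Without the sham day 3 section 5 members were called among 172 genes, with Fbln1 (0.47), Mfap2 (0.33) and Mfap4 (0.30) joining these, and without MI day 3 Fbn1 (-0.33) was a further call among 175 genes.

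MI day 7 replicate 2 was the only section with at least 10 edge spots around enclosed gaps, 45 beside 118 on the outer margin. There, Eln was 997 CPM around the gaps, 697 on the outer margin and 560 in the interior, and Mfap5 was 186, 123 and 137 CPM. Mfap4 (310, 150 and 173) and Fbn1 (383, 233 and 244) followed the same order as Mfap5, low on the outer margin and high around the gaps. Fbln2 was above the interior on both margins, 347 and 282 against 196 CPM. What the gaps are was not tested.

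Of 52 other genes of elastic fiber assembly, growth factor storage and breakdown, 46 were tested. None was called between MI and sham across days or at day 7, where 37 and 34 were higher in MI, and 11 were higher in each MI section than in both sham sections (6.84% of all genes were). These included Loxl1, which cross-links elastin, at 102 and 125 CPM in sham and 178, 130 and 201 in MI, and the proteoglycan Bgn at 137 and 199 against 462, 204 and 351. At day 3, 12 reached a log2 ratio of 1 in size, beside 4.03% of all genes, led by the elastin-degrading protease Ctss (3.83) and the latent TGF-β binding protein Ltbp2 (2.66). Ctss was the only one called in the contrast of the MI difference at day 3 against day 7 (2.76, SE 0.36, limma adjusted p = 0.00167), with 9.97 and 6.50 CPM in sham and 155, 12.3 and 17.8 in MI. This call was lost, with those of all other genes, under median-of-ratios scaling and without mitochondrial and hemoglobin genes.

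At the edge, 9 of 46 were called, beside 4.79% of all genes, whose split of higher and lower calls turned with the scaling as given above. Efemp1, a fibulin, and Mmrn1, an EMILIN family member, were higher (1.47 and 1.22), and both were low in level, with at most 28.3 and 6.4 CPM in any set of edge spots. Adamtsl2 (-0.89), Thsd4 (-0.72), Vcan (-0.53), Hmcn1 (-0.48), Mmrn2 (-0.40), Loxl2 (-0.36) and Emilin2 (-0.28) were lower, all by more than the median of -0.13, and Emilin2 is named although the rule stopped at 8 genes. Vcan, the large proteoglycan versican, was at 30.2 and 54.3 CPM in edge and interior spots of sham day 3 and at 20.3 and 34.6 in MI day 7 replicate 1. Within CM1 spots, Loxl1 alone of 45 was called (-0.34, SE 0.09, limma adjusted p = 0.0354).

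Genes were also ranked by how closely their spots followed the summed members. Over 7570 genes with at least 10 CPM in each section, the highest mean Spearman rho across spots over the 5 sections was that of Col3a1 (0.74), followed by Postn (0.73), Col1a2 (0.71), Sparc (0.69), Fstl1 (0.67), Col1a1 (0.67), Bgn (0.65), Fn1 (0.64), Mgp (0.63) and Igfbp7 (0.61). By member, the nearest gene was Mgp for Eln (0.60), Col3a1 for Fbln1 (0.54), Mfap2 (0.50), Mfap4 (0.60) and Emilin1 (0.38), Fstl1 for Fbln2 (0.53), Bgn for Fbln5 (0.33), Postn for Fbn1 (0.57) and Ltbp4 (0.50), and Dcn for Mfap5 (0.48). Spots of a section share its library, so these are descriptions with no p.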

How the data were processed

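Visium sections were aligned by the authors with Space Ranger to mouse genome GRCm38 (mm10) and processed in Seurat with sctransform. The deposited sham day 3 table held raw UMI counts, since its totals equaled the raw totals in 100% of spots. For the 4 remaining sections the authors gave values corrected by sctransform, used here as a score and not as a count. The deposited spot metadata gave the raw UMI count, the image position (the other unit) and 11 cell type scores as a fraction, from label transfer. Only 3 spot barcodes were common to all 5 sections. Spots were scaled to CPM over the 13711 genes in all 5 tables and averaged per section, so that the section was the replicate. Fits used limma 3.58.1 (R 4.3.3) with a mean-variance trend on log2(mean CPM + 1), which understates low genes, for genes with at least 1 CPM in 2 columns, two-sided, with Benjamini-Hochberg adjustment over all genes at 0.05. No count test was used. The members, gene lists and comparisons were chosen with earlier results of these data known. Named genes were all 10 members, the called pathway genes (at most 8 a comparison, the largest in size) and the most similar genes. Scripts were tested on simulated data. Alternatives covered scaling, pseudocount, filter, edge rule, spot set and each section left out. Positions in GENCODE vM21 (GRCm38): Eln lies on chromosome 5 (134702593 to 134747323, minus strand), Mfap4 on chromosome 11 (61485431 to 61488900, plus) and Mfap5 on chromosome 6 (122505845 to 122529290, plus). Mfap4 overlaps Mapk7 and Eln overlaps Gm30003 on the opposite strand, and whether counting used strand is not given in the sources used here.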

Additional observations from a re-analysis of the deposited data

Results flagged for a closer look

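The difference between MI and sham in Mfap4 was larger at day 3 than at day 7 with a log2 contrast of 1.77 (SE 0.37, adjusted p = 0.0432 by limma). It was 42.3 CPM in the sham and 212 in the MI section of day 3, and 110 in the sham and 142 and 178 in the MI sections of day 7, so the sham sections differed between the days as well. Day 3 has 1 section a group, and the fit 1 residual degree of freedom. The call was lost with median-of-ratios scaling (adjusted p = 0.201), without mitochondrial and hemoglobin genes (0.279), without spots that had no neighbor (0.105) and without symbols that have a second copy (0.0510).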

How the results depend on the processing

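Beside the fits without a section, 690 member values were recomputed, and 23 changed sign, all within 0.16 of 0 and none called. With median-of-ratios scaling the sign changes were Fbln2 (0.031), Fbn1 (0.0028) and Ltbp4 (0.015) at day 7, Fbln1 (0.13) and Fbln2 (0.039) between days, Fbln5 (0.10) and Emilin1 (0.069) at the edge, and Fbln5 (0.10), Emilin1 (0.042) and Ltbp4 (0.043) at the edge of CM1 spots. Without mitochondrial and hemoglobin genes they were Fbln2 (0.063), Fbn1 (0.033) and Ltbp4 (0.054) at day 7, Fbln5 (0.044) and Emilin1 (0.027) at the edge and Fbln5 (0.043) within CM1 spots. In CM1 spots alone, MI against sham gave -0.0094 for Fbn1, and 1 member was called (32 of all genes). With fewer than 5 neighbors for an edge they were Mfap4 (-0.025) and Emilin1 (0.0072), Fbln5 (0.059) and Mfap2 (0.064) for the difference of edge effects, and Fbln5 (0.16) and Emilin1 (0.054) within CM1 spots, and 4 members were called at the edge (901 of all genes) and 1 for the difference of edge effects (2 of all genes).

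Median-of-ratios scaling, leaving out mitochondrial and hemoglobin genes, symbols with a second copy or spots with no neighbor each left 0 members called at day 7 and 0 in the contrast of days, and leaving out shallow spots gave 2 in the latter (87 of all genes). Median-of-ratios scaling called 4 at the edge of CM1 spots (121 of all genes), and a pseudocount of 5 called 1 at the edge (578 of all genes). Leaving out shallow spots, symbols with a second copy and spots with no neighbor were chosen after seeing the data.

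Without each section in turn, 0 to 3 members were called across days (0 to 366 of all genes), 0 to 1 between days (32 to 758), 1 to 3 at the edge (132 to 782), 0 to 1 for the difference of edge effects (0 to 15) and 2 to 5 within CM1 spots (56 to 175). Values that changed sign ranged, across days, from -0.0016 to 0.34 (Fbln2) and -0.030 to 0.18 (Fbn1), and between days from -0.22 to 0.064 (Fbln1), -0.30 to 0.040 (Fbln2), -0.25 to 0.53 (Fbln5) and -0.41 to 1.36 (Mfap4). At the edge they ranged from -0.0084 to 0.41 (Eln), -0.13 to 0.10 (Fbln2), -0.15 to 0.14 (Fbln5) and -0.013 to 0.17 (Mfap4). For the difference of edge effects they ranged from -0.16 to 0.32 (Fbln2), -0.071 to 0.27 (Fbn1), -0.28 to 0.13 (Mfap2) and -0.058 to 0.51 (Mfap5), and within CM1 spots from -0.037 to 0.12 (Fbln2), -0.13 to 0.12 (Fbln5) and -0.16 to 0.0077 (Emilin1). The causes were not tested. The fits at day 7 without a day 7 section, and those of the contrast of days without any section, were not run, since they leave no residual degree of freedom or no contrast. No paired analysis was possible because the groups share fewer than 2 replicate numbers.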

Other observations

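Across the spots of a section, the members ranked alike to different degrees. The highest mean Spearman rho over the 5 sections was between Eln and Mfap4 (0.56, from 0.40 to 0.71), followed by Fbln2 and Fbn1 (0.52). The lowest was between Mfap5 and Emilin1 (0.12), and Mfap5 had a mean rho of only 0.18 with Eln and 0.17 with Mfap4. Each member had a positive mean rho with the sum of the fibroblast markers, from 0.30 (Fbln5) to 0.62 (Mfap4), and a negative one with the cardiomyocyte markers, from -0.38 (Mfap4) to -0.17 (Mfap5). With the sum of the endocardial markers, which is nearly all Postn (866 of 890 CPM in MI day 3), rho was from 0.27 (Fbln5) to 0.58 (Fbn1), and for Mfap5 (0.40) and Ltbp4 (0.51) it was above that with the fibroblast sum (0.37 and 0.50). With the 6 smooth muscle and pericyte markers it was 0.21 for Eln and 0.072 for Mfap5. The spots of a section share its library, so these values carry no test.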
